A study of Homo sapiens with 11 samples.

Results

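Amino acid transporters are the membrane carriers through which cells take up and exchange the building blocks of protein, and 10 of their genes are described here across messenger RNA libraries of HEK293T cells, a human embryonic kidney line that carries the SV40 large T antigen. They were taken by symbol from the deposited gene count table, which lists 58735 genes, and all 10 were among the 18368 genes that had enough counts to be tested. The set holds SLC3A2, SLC7A11, SLC7A5, SLC7A1, SLC7A3, SLC1A4, SLC1A5, SLC38A1, SLC38A2 and SLC6A9. Cells were sampled 48 h after transfection with 1 of 3 siRNAs and compared with control libraries (n = 3). The siRNA against NAE1 (siNAE1) was used at 50 nM with 3 libraries, that against UBE2M (siUBE2M) at 70 nM with 3, and that against URM1 (siURM1) at 60 nM with 2. NAE1 is a subunit of the enzyme that activates the ubiquitin-like protein NEDD8, UBE2M is an enzyme that passes NEDD8 on to cullins, and URM1 is a ubiquitin-like protein that also carries sulfur for the modification of transfer RNA. All groups were of this 1 cell line without a drug or an introduced allele in the labels. The control is labelled as a control siRNA without a dose, and the study's methods name a non-targeting siRNA as negative control for its knockdowns, while its supplement calls these libraries HKWT, which leaves the treatment of the control cells not fully settled.

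SLC3A2 is the heavy chain (4F2hc, CD98) that brings several light chains to the cell surface, among them SLC7A5 (LAT1), which exchanges large neutral amino acids such as leucine for glutamine, and SLC7A11 (xCT), which takes up cystine in exchange for glutamate. Cystine is reduced to cysteine inside the cell, where it is used for glutathione synthesis, and loss of its uptake can lead to ferroptosis. SLC7A1 and SLC7A3 carry arginine and lysine, SLC1A4 and SLC1A5 exchange small neutral amino acids such as serine and glutamine, SLC38A1 and SLC38A2 take up neutral amino acids together with sodium, and SLC6A9 takes up glycine. Several of these genes are known targets of ATF4, the transcription factor of the amino acid and integrated stress response, and SLC7A11 is also a target of NRF2.

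The targeted genes were lower in their own knockdowns. As CPM (a gene's counts as a share of the library total, scaled by the library factors of edgeR), NAE1 fell to 38.9% of control after siNAE1, UBE2M to 6.34% after siUBE2M and URM1 to 28.6% after siURM1. In the other knockdowns UBE2M was at 77.5% of control after siURM1 and 89.3% after siNAE1. NAE1 was at 121% after siUBE2M and 130% after siURM1, and URM1 was at 121% after siNAE1. Each of these had an adjusted p under 0.05 in edgeR, while URM1 after siUBE2M, at 89.5%, did not (edgeR adjusted p = 0.096). Total counts per library ranged from 11733163 to 16321391. All 5 markers of HEK293T cells that were checked (NEFL, NEFM, VIM, PAX2 and LIN28B) were detected in every library, at 4.34 CPM or more, but their levels were not even across groups. As a percentage of the control mean, NEFL had 168% after siNAE1, 113% after siUBE2M and 105% after siURM1, NEFM 228%, 92.1% and 228%, VIM 134%, 193% and 167%, PAX2 94.7%, 53.4% and 189.7%, and LIN28B 118%, 56.8% and 92.3%. Libraries overlapped control for NEFL after siURM1, NEFM after siUBE2M, PAX2 after siNAE1 and LIN28B after siNAE1 and siURM1, and otherwise did not. Of 8 markers of other cell types, CD3E and HBB were at 0 in every library, and PTPRC, ALB, APOA2, HBA1, CD3E and HBB together summed to at most 0.843 CPM. The fibroblast collagens COL1A1 and COL3A1 were detected. COL1A1 had 21.0 ± 1.96 CPM in control, 18.2 ± 2.42 after siNAE1, 27.4 ± 2.37 after siUBE2M and 22.5 ± 1.41 after siURM1, and overlapped control in the first and last of these knockdowns. COL3A1 went from 2.07 ± 0.645 CPM in control to 6.44 ± 1.34 after siNAE1, 6.03 ± 0.360 after siUBE2M and 4.71 ± 0.396 after siURM1, and the sum of all 8 markers ranged from 20.8 to 26.2 CPM in control, 23.8 to 26.6 after siNAE1, 30.9 to 36.0 after siUBE2M and 26.3 to 28.8 after siURM1. The part of these markers in the results was not tested. In bulk libraries, fewer cells with a transcript and less of it per cell cannot be told apart.

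All 10 transporter genes were lower than control in each of the 3 knockdowns. A gene was said to have passed at a Benjamini-Hochberg adjusted p under 0.05 in the edgeR quasi-likelihood test, and to be a differentially expressed gene (DEG) if its log2 fold change was also at least 1 in size. After siNAE1 10 of 10 passed in the lower direction, as did 27.1% of all genes tested. After siUBE2M 10 of 10 passed lower, against 22.6% of all genes tested, and after siURM1 10 of 10, against 20.8%. The 10 genes were chosen with earlier results of these data known, so these counts describe them and are no independent test. In none of the 30 comparisons of a gene with control did the CPM values of the knockdown libraries overlap those of the control libraries. Of all genes tested, 29.7% had every siNAE1 library below every control library, 26.9% every siUBE2M library and 31.0% every siURM1 library. The median log2 fold change of the 10 genes was -1.01 after siNAE1, -0.57 after siUBE2M and -0.58 after siURM1, while the medians of all genes tested were -0.00210, 0.00747 and -0.0209.

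The sizes of the changes were less alike than their direction. After siNAE1, 5 of the 10 were DEGs in the lower direction (SLC7A11, SLC7A3, SLC1A4, SLC6A9 and SLC7A1), against 8.61% of all genes tested. After siUBE2M only SLC7A11 was a lower DEG, against 3.89% of all genes tested. After siURM1 there were 4 (SLC7A11, SLC7A3, SLC1A4 and SLC7A1), against 4.73%. When the test asked whether a change was larger than a log2 fold change of 1 rather than different from 0, the edgeR test glmTreat called 3, 0 and 2 of the 10 lower in that order (4, 1 and 2 at an unadjusted p under 0.05), and 2.73%, 0.583% and 0.642% of all genes tested. Without siUBE2M replicate 3 there were 2 lower DEGs after siUBE2M, and without siURM1 replicate 2 there were 2 after siURM1. SLC7A11, the cystine carrier, was the 1 gene that was a DEG in all 3 knockdowns.

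**Figure D1:**
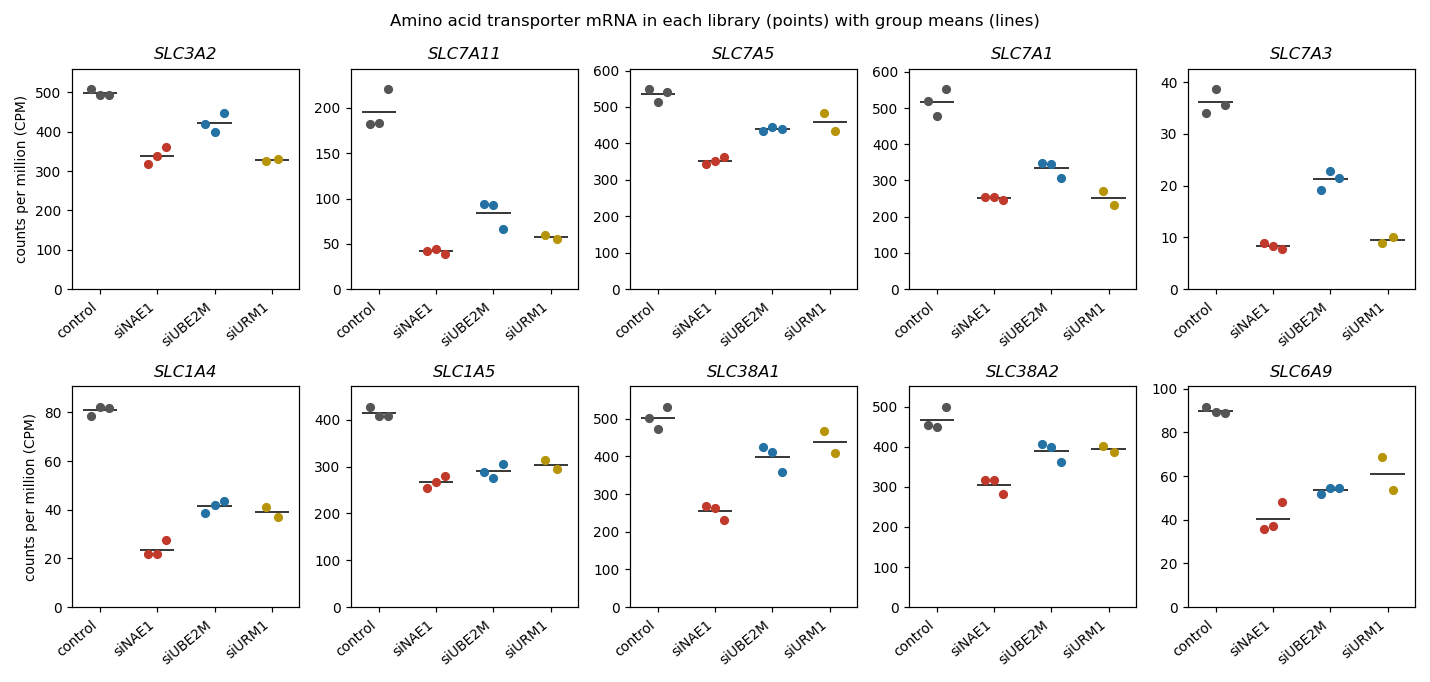
CPM (vertical axis, from 0) of each of the 10 transporter genes in every library (points) of control, siNAE1, siUBE2M and siURM1 cells, with the mean of each group (lines). In every panel all control libraries lie above all knockdown libraries, and the gap is widest in proportion for SLC7A11 and SLC7A3 after siNAE1.

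Between genes, levels were compared as FPKM, the authors' values that correct counts for gene length and library size. In control cells SLC1A5 was highest at 123 ± 3.02 FPKM (mean ± SD, n = 3), followed by SLC7A5 at 112 ± 3.49, SLC3A2 at 95.5 ± 1.34, SLC38A2 at 70.3 ± 4.31 and SLC7A1 at 66.6 ± 4.76. SLC38A1 had 49.7 ± 2.91 FPKM, SLC7A11 20.1 ± 2.30, SLC6A9 17.3 ± 0.246, SLC7A3 15.8 ± 1.11 and SLC1A4 11.6 ± 0.354. SLC38A2 and SLC7A1 were the only neighbours in this order whose libraries overlapped. After siNAE1 SLC1A5 and SLC7A5 overlapped, at 79.0 ± 3.82 and 73.3 ± 1.94 FPKM, and SLC6A9, at 7.69 ± 1.29, now stood above SLC7A11, at 4.25 ± 0.307. SLC6A9 stood above SLC7A11 in the other two knockdowns as well, at 10.3 ± 0.282 against 8.63 ± 1.53 FPKM after siUBE2M and at 11.8 ± 2.00 against 5.92 ± 0.324 after siURM1 (n = 2). The 4 genes with the lowest control FPKM (SLC7A11, SLC6A9, SLC7A3 and SLC1A4) had log2 fold changes of -2.23 to -1.17 after siNAE1, while the 6 with more had -1.04 to -0.56. After siUBE2M the ranges were -1.22 to -0.75 and -0.63 to -0.24, and after siURM1 they met, at -1.94 to -0.55 and -1.04 to -0.20. This division by level was made after the values were seen, and it has no test.

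Promoter sequences were searched for the C/EBP-ATF response element and the antioxidant response element. ATF4 and NRF2 are known to act through these short elements. RefSeq windows from 250 bases before to 50 after a gene's start (GRCh38.p14) were matched by symbol for 8 of the 10 genes, in 14 windows, and SLC7A11 and SLC7A3 were not matched. The letters TGATGNAA, on either strand, were in 5 of the 14 windows, of SLC1A4, SLC3A2, SLC38A1, SLC7A1 and SLC1A5, and in 3.62% of all 35116 windows. The matches are given with their surroundings, read 5′ to 3′ on the gene's strand, with the match in capitals. SLC1A4 and SLC3A2 carry it on the opposite strand, so that its reverse complement is seen.
SLC1A4 (chr2:64989381-64989410, plus strand): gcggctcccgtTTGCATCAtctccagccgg
SLC3A2 (chr11:62881725-62881748, plus strand): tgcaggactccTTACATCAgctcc
SLC38A1 (chr12:46266502-46266531, minus strand): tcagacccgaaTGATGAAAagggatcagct
SLC7A1 (chr13:29595663-29595692, minus strand): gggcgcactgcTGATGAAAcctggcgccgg
SLC1A5 (chr19:46784893-46784922, minus strand): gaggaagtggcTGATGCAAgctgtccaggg
Counting the first base of the window's transcript as position 1 and the base before it as -1, the SLC7A1 match began at position 8 and the SLC38A1 match at position -4. The windows of SLC3A2, SLC1A5, SLC38A1 and SLC1A4 belong to start sites 25597, 3780, 3501 and 922 bases from the 5′ end that the deposited table gives for the gene.

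The letters TGACNNNGC were in 4 of the 14 windows, of SLC3A2, SLC7A1, SLC7A5 and SLC1A5, and in 13.3% of all windows. They are shown in the same way, with the match in capitals, and SLC1A5 carries it on the opposite strand in another of its 3 windows.
SLC3A2 (chr11:62881651-62881680, plus strand): acgagggtgggTGACTCAGCgtcctccttc
SLC7A1 (chr13:29595755-29595784, minus strand): gtgcccggcggTGACGCGGCcgagcgggcc
SLC7A5 (chr16:87869491-87869520, minus strand): ggcggggttccTGACGCAGCtgcgggcggc
SLC1A5 (chr19:46787386-46787415, minus strand): tcctggatcttGCGAGGTCAgctcccgctc
In SLC3A2 and SLC7A1 both sets of letters were found in the same window, at positions that do not overlap. A match describes the letters in a window and is not a binding site. SLC3A2 and SLC1A5 had 3 windows each, so windows of the same gene were counted separately. Whether either set of letters has a part in the lower transcripts was not tested.

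SLC3A2 (ENSG00000168003, chr11:62856102-62888875, plus strand), the shared heavy chain, had the smallest change of the 10 genes after siUBE2M and the third highest control FPKM. Its CPM values were 509.7, 494 and 494 in control, 318, 339.7 and 360.3 after siNAE1, 420.2, 399.7 and 447 after siUBE2M and 324 and 330.0 after siURM1. The siURM1 libraries lay within the range of the siNAE1 libraries, and both groups lay below siUBE2M. Against the control libraries its log2 fold change was -0.56 ± 0.06 (SE, edgeR adjusted p = 1.5e-09) after siNAE1, -0.24 ± 0.06 (SE, edgeR adjusted p = 0.0011) after siUBE2M and -0.61 ± 0.07 (SE, edgeR adjusted p = 7.1e-09) after siURM1. SLC3A2 and SLC7A1 were the 2 genes whose mean CPM was lowest after siURM1, although the difference between siNAE1 and siURM1 did not pass for either. For SLC3A2 it was 0.05 (siNAE1 minus siURM1, 95% confidence interval -0.08 to 0.19, edgeR adjusted p = 0.57).

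SLC7A11 (ENSG00000151012, chr4:138164097-138242349, minus strand), the cystine light chain, had the lowest fold change of the 10 genes after siNAE1 and siUBE2M. Library by library, its CPM was 182, 184 and 221 in control, 41.6, 44.6 and 38.6 after siNAE1, 93.7, 92.4 and 66.8 after siUBE2M and 59.8 and 55.3 after siURM1. No group overlapped another, and siUBE2M replicate 3 was the lowest of its group. This left 21.2%, 43.0% and 29.4% of the control mean. Log2 fold changes were -2.23 ± 0.10 (SE, edgeR adjusted p = 1.6e-18) after siNAE1, -1.22 ± 0.09 (SE, edgeR adjusted p = 1.9e-12) after siUBE2M and -1.76 ± 0.11 (SE, edgeR adjusted p = 2.5e-14) after siURM1. Only 1.61%, 3.12% and 1.78% of the genes tested had a log2 fold change as low or lower. The antisense gene SLC7A11-AS1, which overlaps it, had 0 to 11 counts per library, against 430 to 3508 for SLC7A11.

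SLC7A5 (ENSG00000103257, chr16:87830023-87869488, minus strand), the leucine light chain, had smaller fold changes than SLC7A11 in each knockdown. In CPM it measured 550.3, 514 and 541 in control, 343, 353 and 362 after siNAE1, 433, 446 and 440.3 after siUBE2M and 483 and 434 after siURM1. The siNAE1 libraries were below all others, and the siUBE2M libraries lay within or just below the range of the 2 siURM1 libraries. In edgeR the log2 fold change came to -0.60 ± 0.06 (SE, edgeR adjusted p = 1.5e-10) after siNAE1, -0.28 ± 0.06 (SE, edgeR adjusted p = 1.3e-04) after siUBE2M and -0.22 ± 0.06 (SE, edgeR adjusted p = 0.0051) after siURM1. The siURM1 call rested on siURM1 replicate 2, without which the log2 fold change was -0.14 (edgeR adjusted p = 0.17), while without replicate 1 it was -0.30 and passed.

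Because light chains need the heavy chain at the membrane, their transcripts were also set against that of SLC3A2 as a ratio of FPKM values in each library. SLC7A11 over SLC3A2 was 0.211 ± 0.0262 in control (mean ± SD), 0.0661 ± 0.00746 after siNAE1, 0.108 ± 0.0242 after siUBE2M and 0.0945 ± 0.00636 after siURM1, and no knockdown library overlapped the control. SLC7A5 over SLC3A2 was 1.17 ± 0.0314 in control, 1.14 ± 0.0409 after siNAE1, 1.14 ± 0.0725 after siUBE2M and 1.53 ± 0.134 after siURM1. Both siURM1 libraries lay above the control range, while siNAE1 overlapped it and the siUBE2M libraries fell on either side of it. For the sum of both light chains over SLC3A2 the ratio was 1.38 ± 0.0519 in control, 1.20 ± 0.0472 after siNAE1 (two-sided exact permutation p = 0.1), 1.25 ± 0.0935 after siUBE2M (exact p = 0.2) and 1.62 ± 0.140 after siURM1 (exact p = 0.2). The smallest p such a test can give is 0.1 for 3 against 3 libraries and 0.2 for 3 against 2, so that none could pass 0.05.

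**Figure D2:**
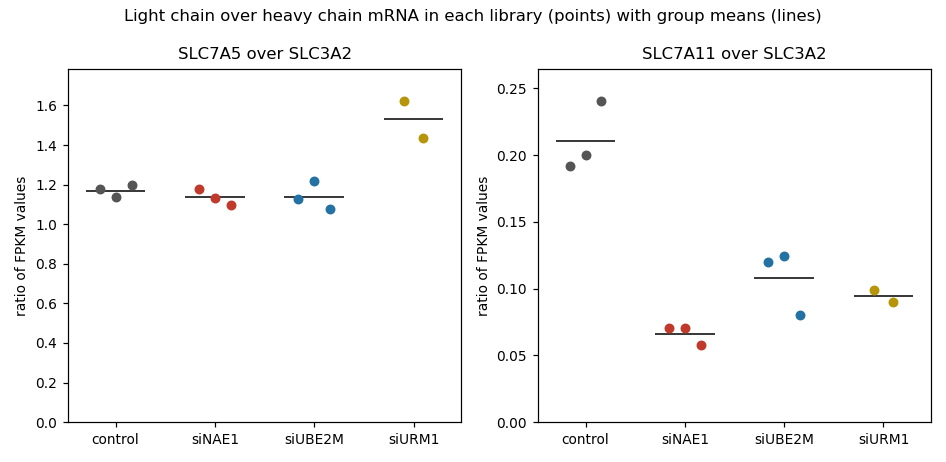
Ratio of FPKM values (vertical axes, from 0) of SLC7A5 over SLC3A2 and of SLC7A11 over SLC3A2 in every library (points), with group means (lines). The SLC7A11 ratio is lower in all knockdown libraries than in control, and the SLC7A5 ratio is above control in both siURM1 libraries.

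SLC7A1 (ENSG00000139514, chr13:29509410-29595688, minus strand), the widely expressed arginine and lysine carrier CAT1, had nearly the same mean after siNAE1 and siURM1. CPM values of the gene were 518, 478 and 554 in control, 255, 256 and 245 after siNAE1, 348, 346 and 307 after siUBE2M and 270.0 and 232 after siURM1. The siNAE1 libraries lay between the 2 siURM1 libraries, and the siUBE2M libraries stood between these groups and control. Against control, the log2 fold change was -1.04 ± 0.07 (SE, edgeR adjusted p = 1.9e-14) after siNAE1, -0.63 ± 0.07 (SE, edgeR adjusted p = 2.0e-09) after siUBE2M and -1.04 ± 0.08 (SE, edgeR adjusted p = 1.1e-12) after siURM1. The difference between siNAE1 and siURM1 was 0.0056 (95% confidence interval -0.15 to 0.16, edgeR adjusted p = 0.96), and its sign changed with the scaling.

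SLC7A3 (ENSG00000165349, chrX:70925582-70931125, minus strand), the cationic carrier CAT3, was the least abundant of the 10 genes by count and had the lowest fold change of them after siURM1. By CPM the libraries gave 34.1, 38.7 and 35.7 in control, 8.83, 8.25 and 7.71 after siNAE1, 19.1, 22.9 and 21.6 after siUBE2M and 8.86 and 10.0 after siURM1. The siUBE2M libraries stood well apart from the other two knockdowns. The fitted log2 fold change was -2.13 ± 0.11 (SE, edgeR adjusted p = 2.2e-16) after siNAE1, -0.77 ± 0.10 (SE, edgeR adjusted p = 1.5e-07) after siUBE2M and -1.94 ± 0.13 (SE, edgeR adjusted p = 9.5e-14) after siURM1. Of all genes tested, 1.83%, 8.84% and 1.35% had a log2 fold change as low or lower.

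SLC1A4 (ENSG00000115902, chr2:64988477-65023865, plus strand), the serine and alanine exchanger ASCT1, had the lowest control FPKM of the 10 genes. The libraries held CPM values of 78.5, 82.4 and 81.7 in control, 21.8, 21.7 and 27.4 after siNAE1, 38.6, 42.0 and 43.8 after siUBE2M and 41.0 and 37.1 after siURM1. The siUBE2M and siURM1 libraries overlapped, and the siNAE1 libraries lay below both. On the log2 scale the fold change was -1.78 ± 0.09 (SE, edgeR adjusted p = 4.0e-17) after siNAE1, -0.96 ± 0.08 (SE, edgeR adjusted p = 4.1e-11) after siUBE2M and -1.05 ± 0.10 (SE, edgeR adjusted p = 1.5e-10) after siURM1.

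SLC1A5 (ENSG00000105281, chr19:46774883-46788594, minus strand), the glutamine exchanger ASCT2, had the highest control FPKM. Per library, CPM stood at 428, 408 and 407 in control, 254, 268 and 279.5 after siNAE1, 288, 276 and 306 after siUBE2M and 313 and 295 after siURM1. The siUBE2M libraries overlapped both other knockdowns, and its 3 fold changes spanned less than those of any of the other genes. The edgeR fit gave log2 fold changes of -0.64 ± 0.06 (SE, edgeR adjusted p = 1.0e-10) after siNAE1, -0.52 ± 0.06 (SE, edgeR adjusted p = 1.3e-08) after siUBE2M and -0.45 ± 0.07 (SE, edgeR adjusted p = 1.9e-06) after siURM1.

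SLC38A1 (ENSG00000111371, chr12:46183063-46270017, minus strand), the sodium-coupled glutamine carrier SNAT1, differed between siNAE1 and the other knockdowns. In the single libraries CPM was 502, 473 and 533 in control, 268, 264 and 231 after siNAE1, 425, 411 and 357 after siUBE2M and 467 and 410.1 after siURM1. The siNAE1 libraries were far below the rest, and siURM1 replicate 1 came within a few CPM of the lowest control library. Its change against control was, as log2 fold change, -0.98 ± 0.07 (SE, edgeR adjusted p = 2.4e-13) after siNAE1, -0.34 ± 0.07 (SE, edgeR adjusted p = 1.6e-04) after siUBE2M and -0.20 ± 0.08 (SE, edgeR adjusted p = 0.041) after siURM1. The siURM1 value had the largest adjusted p of all 30. It was smaller in size without siURM1 replicate 2 (-0.10, edgeR adjusted p = 0.45) and without control replicate 3 (-0.14, edgeR adjusted p = 0.20). The call was also lost, at log2 fold changes from -0.20 to -0.18, without control replicate 1 (edgeR adjusted p = 0.090), siUBE2M replicate 1 (0.059), siUBE2M replicate 2 (0.056) or siNAE1 replicate 2 (0.050), and with limma on log2 FPKM with either pseudocount (adjusted p = 0.12).

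SLC38A2 (ENSG00000134294, chr12:46358189-46372867, minus strand), the related carrier SNAT2, which is known to be induced when amino acids are scarce, fell most after siNAE1. Measured as CPM, it had 455, 449 and 501 in control, 317, 318 and 281 after siNAE1, 407, 400.2 and 363 after siUBE2M and 402 and 388 after siURM1. The siURM1 libraries lay within the range of the siUBE2M libraries, and the siNAE1 libraries were below both. For this gene the log2 fold change was -0.62 ± 0.06 (SE, edgeR adjusted p = 6.3e-10) after siNAE1, -0.26 ± 0.06 (SE, edgeR adjusted p = 8.0e-04) after siUBE2M and -0.25 ± 0.07 (SE, edgeR adjusted p = 0.0049) after siURM1. For siURM1 the log2 fold change was -0.22 without siURM1 replicate 2 (edgeR adjusted p = 0.064) and -0.18 without control replicate 3 (edgeR adjusted p = 0.058).

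SLC6A9 (ENSG00000196517, chr1:43991500-44031467, minus strand), the glycine carrier GLYT1, was the remaining DEG of siNAE1 cells. CPM by library came to 91.8, 89.1 and 88.8 in control, 35.8, 36.9 and 48.0 after siNAE1, 51.8, 54.4 and 54.4 after siUBE2M and 68.5 and 53.7 after siURM1. The siNAE1 libraries lay below all others, and the 2 siURM1 libraries were unequal, with replicate 2 inside the range of siUBE2M. The resulting log2 fold change was -1.17 ± 0.09 (SE, edgeR adjusted p = 2.5e-12) after siNAE1, -0.75 ± 0.09 (SE, edgeR adjusted p = 3.1e-08) after siUBE2M and -0.55 ± 0.10 (SE, edgeR adjusted p = 3.3e-05) after siURM1. CCDC24, which overlaps it on the opposite strand, had 23 to 78 counts per library, against 466 to 1521 for SLC6A9. The libraries were made strand-specific, but the strand setting of the counting is not given in the sources used here, so fragments of a pair on opposite strands may be shared or lost.

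**Figure D3:**
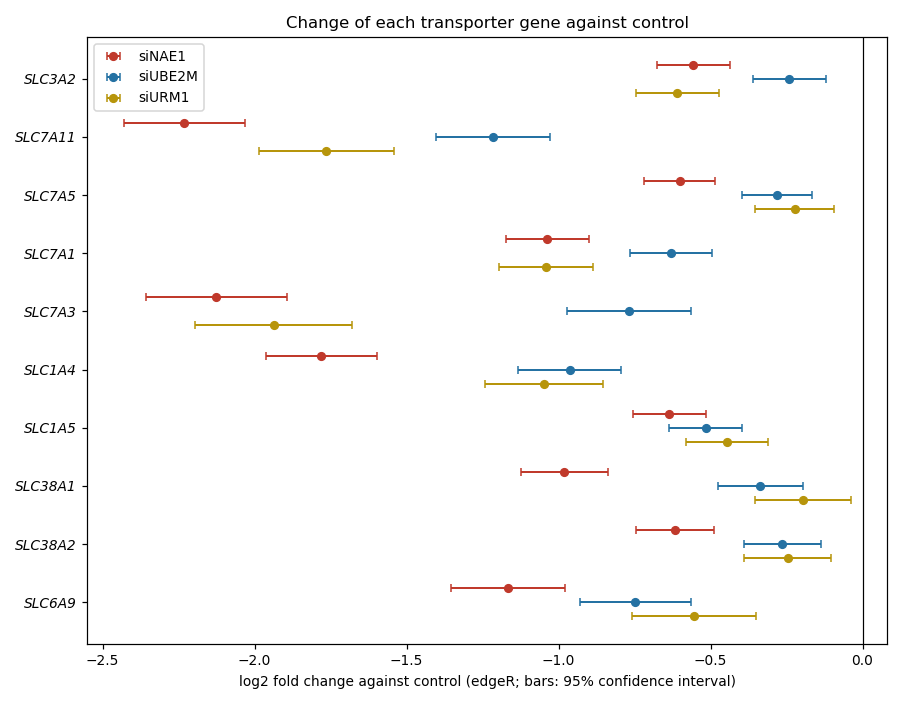
Log2 fold change against control (horizontal axis, edgeR) of each transporter gene after siNAE1, siUBE2M and siURM1 (points), with 95% confidence intervals (bars). All 30 intervals lie below 0, and SLC38A1 after siURM1 comes nearest to it.

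To ask whether the knockdowns lowered these genes to the same extent, they were compared with each other in the same fit. The siRNA doses differed (50, 70 and 60 nM) and so did the remaining target transcript, so a difference between knockdowns cannot be told apart from a difference in dose. The siNAE1 libraries were lower than siUBE2M libraries for 9 of the 10 genes and higher for none (also 9 and 0 at an unadjusted p under 0.05, with DESeq2 and with limma), while 21.6% of all genes tested were lower and 22.7% higher. SLC7A3 differed most, by -1.36 ± 0.12 (SE) on the log2 scale, and SLC7A11 by -1.02 ± 0.10 (SE). The exception was SLC1A5, at -0.12 (95% confidence interval -0.24 to 0.0017, edgeR adjusted p = 0.1). It passed with at least 10 counts required in every library (-0.14, edgeR adjusted p = 0.046) and without siUBE2M replicate 2 (-0.16, edgeR adjusted p = 0.049), while without siUBE2M replicate 3 it shrank to -0.079 and did not pass.

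The siNAE1 libraries were lower than siURM1 libraries for 7 of the 10 genes and higher for none (also 7 and 0 at an unadjusted p under 0.05, with DESeq2 and with limma), while 19.1% of all genes tested were lower and 19.5% higher. The largest differences were those of SLC38A1, at -0.78 ± 0.08 (SE), SLC1A4, at -0.73 ± 0.10 (SE), and SLC6A9, at -0.61 ± 0.10 (SE). SLC7A11 differed by -0.47 ± 0.11 (SE). That of SLC1A5, at -0.19 (edgeR adjusted p = 0.022), did not pass without siNAE1 replicate 1 (0.094) or without siURM1 replicate 1 (0.20). SLC3A2, SLC7A1 and SLC7A3 did not pass, the last at -0.19 (95% confidence interval -0.48 to 0.10, edgeR adjusted p = 0.32).

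The siUBE2M libraries were higher than siURM1 libraries for 4 genes, against 16.7% of all genes tested, and lower for none, against 18.3%, and the counts were also 4 and 0 at an unadjusted p under 0.05, with DESeq2 and with limma. These 4 were the heavy chain SLC3A2, at 0.37 ± 0.07 (SE), its cystine light chain SLC7A11, at 0.55 ± 0.11 (SE), and both cationic carriers, SLC7A1 at 0.41 ± 0.07 (SE) and SLC7A3 at 1.17 ± 0.13 (SE). The leucine light chain SLC7A5, the neutral carriers and SLC6A9 did not pass, with differences from -0.19 (SLC6A9, 95% confidence interval -0.40 to 0.01) to 0.08 (SLC1A4, 95% confidence interval -0.11 to 0.28). The SLC6A9 difference depended on which siURM1 library was used, at -0.36 without replicate 2 (edgeR adjusted p = 0.022) and -0.0071 without replicate 1, where it did not pass.

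**Figure D4:**
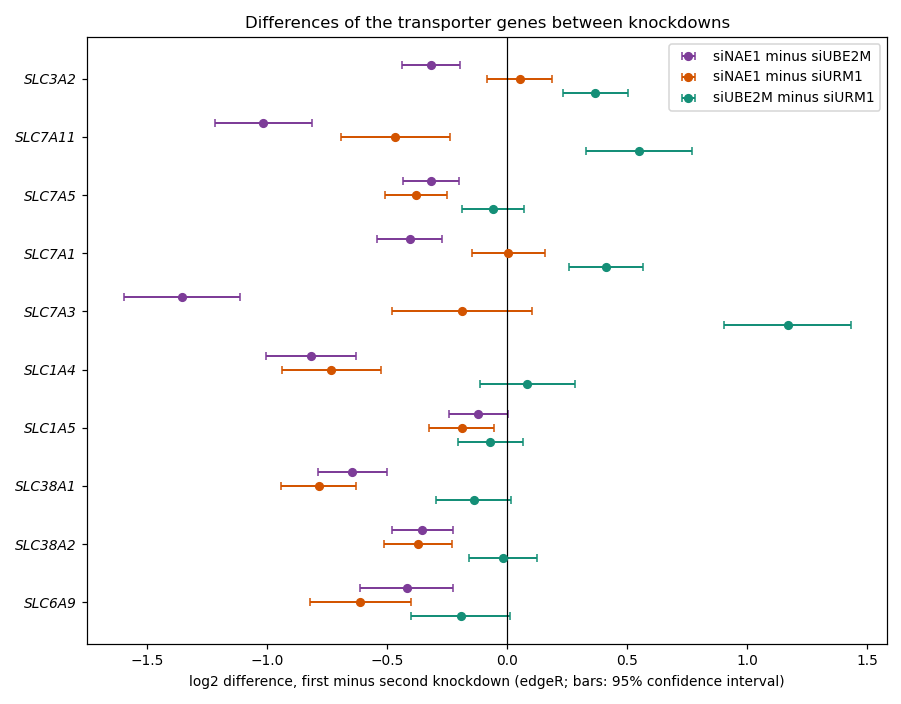
Log2 difference between knockdowns (horizontal axis, edgeR, first minus second) of each transporter gene, with 95% confidence intervals (bars). The siNAE1 minus siUBE2M points lie below 0 throughout, and the siUBE2M minus siURM1 points stand clear above 0 for SLC3A2, SLC7A11, SLC7A1 and SLC7A3.

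Among other carriers from gene families that hold amino acid carriers, some passed lower and some higher. Of 41 listed carriers 22 were tested, and the remaining 19 had too few counts. After siNAE1 7 of the 22 passed lower and 10 higher, while 27.1% of all genes tested passed lower and 27.6% higher. After siUBE2M 4 passed lower and 8 higher, against 22.6% and 22.7% of all genes, and after siURM1 2 passed lower and 6 higher, against 20.8% in each direction. The share of these carriers that passed lower was thus near that of all genes after siNAE1 and siUBE2M and below it after siURM1. The share that passed higher was above that of all genes in each knockdown, least so after siURM1. The median of the 22 was 0.20 after siNAE1, 0.16 after siUBE2M and 0.10 after siURM1 as log2 fold change. The difference between these carriers and the 10 genes was not tested.

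SLC6A6, the taurine carrier, rose from 26.4 ± 2.17 CPM (mean ± SD) in control to 90.7 ± 5.80 after siNAE1, 48.4 ± 2.70 after siUBE2M and 73.7 ± 4.55 after siURM1. Its log2 fold changes were 1.78 ± 0.08 (SE, edgeR adjusted p = 5.8e-18), 0.88 ± 0.08 (SE, edgeR adjusted p = 3.6e-10) and 1.48 ± 0.09 (SE, edgeR adjusted p = 1.6e-14). SLC7A8 (LAT2), like SLC7A5, is a light chain of SLC3A2 for neutral amino acids. It rose, with log2 fold changes of 1.33 ± 0.12 (SE, edgeR adjusted p = 8.7e-11), 0.64 ± 0.13 (SE, edgeR adjusted p = 1.1e-04) and 1.24 ± 0.13 (SE, edgeR adjusted p = 4.7e-09). By CPM it went from 10.3 ± 0.918 in control to 26.0 ± 2.73, 16.1 ± 2.85 and 24.4 ± 0.940. Its FPKM stayed far below that of SLC7A5, at 1.71 in control, 4.29 after siNAE1, 2.65 after siUBE2M and 4.04 after siURM1. SLC7A5 had 112, 73.3, 91.6 and 95.8 FPKM in the same order. SLC38A7, a glutamine carrier of the lysosome, rose by 1.15 ± 0.09 (SE) after siNAE1 and 0.35 ± 0.10 (SE) after siURM1, while its value after siUBE2M was 0.04 (edgeR adjusted p = 0.74).

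Among those that fell was SLC43A1 (LAT3), a carrier of branched-chain amino acids that works without SLC3A2. It went from 71.3 ± 5.60 CPM in control to 26.1 ± 2.19 after siNAE1, 30.9 ± 1.75 after siUBE2M and 49.4 ± 5.08 after siURM1, with log2 fold changes of -1.45 ± 0.09 (SE), -1.21 ± 0.09 (SE) and -0.53 ± 0.09 (SE), all of which passed. SLC38A3 (SNAT3), a glutamine and histidine carrier, fell after siNAE1 (-0.66 ± 0.14, SE) and siURM1 (-1.10 ± 0.16, SE), and its value after siUBE2M was -0.31 (edgeR adjusted p = 0.063).

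**Figure D5:**
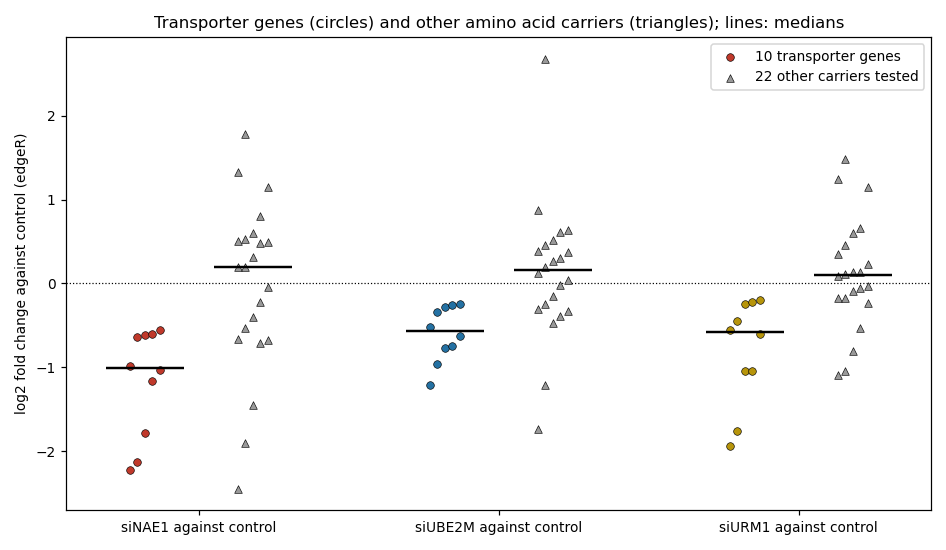
Log2 fold change against control (vertical axis, edgeR) of the 10 transporter genes (circles) and of the 22 other carriers tested (triangles) after each knockdown, with medians (lines). All circles lie below 0, while triangles lie on both sides, and the highest and lowest triangles include SLC38A5 and SLC43A3, whose means over all libraries were under 1 CPM and which are not described further.

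Transcripts of 11 regulators known to act on these carriers moved in both directions. After siNAE1 6 of the 11 passed lower and 5 higher, after siUBE2M 5 and 2, and after siURM1 4 and 3. The shares of all genes tested that passed lower and higher were 27.1% and 27.6%, 22.6% and 22.7%, and 20.8% and 20.8% in the same order. The regulators' median log2 fold changes were -0.30, -0.14 and 0.04. ATF4 itself stood at 852 ± 40.4 CPM in control, 1354 ± 57.0 after siNAE1, 1339 ± 76.2 after siUBE2M and 950.1 ± 33.6 after siURM1. Its log2 fold changes were 0.67 ± 0.06 (SE, edgeR adjusted p = 2.4e-11) and 0.65 ± 0.06 (SE, edgeR adjusted p = 8.5e-11), and after siURM1 0.16 ± 0.07 (SE, edgeR adjusted p = 0.051), which did not pass. ATF4 is known to be controlled mainly at translation, which these libraries do not measure.

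The 3 regulators that are themselves known to be induced through ATF4 fell in all knockdowns. ATF3 had log2 fold changes of -1.94 ± 0.06 (SE), -1.70 ± 0.06 (SE) and -1.91 ± 0.07 (SE) after siNAE1, siUBE2M and siURM1, CEBPB of -1.89 ± 0.09 (SE), -1.27 ± 0.08 (SE) and -1.45 ± 0.09 (SE), and DDIT3 (CHOP) of -1.82 ± 0.12 (SE), -0.91 ± 0.11 (SE) and -0.75 ± 0.12 (SE). Each of these values passed, where 27.1%, 22.6% and 20.8% of all genes tested passed lower in the same knockdowns. ATF4 activity was not measured, and its part in these values was not tested. NFE2L2, which encodes NRF2, had -0.30 ± 0.08 (SE), -0.10 ± 0.08 (SE) and -0.10 ± 0.08 (SE), of which only the first passed (edgeR adjusted p = 0.0013). BACH1, a repressor at antioxidant response elements, fell after siNAE1 (-0.30 ± 0.10, SE) and siUBE2M (-0.71 ± 0.10, SE), and its value after siURM1 was 0.04 (edgeR adjusted p = 0.8).

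MYC, which is known to raise SLC1A5 and SLC7A5, went up after siNAE1 (0.50 ± 0.06, SE) and siURM1 (0.63 ± 0.07, SE) and down after siUBE2M (-0.72 ± 0.06, SE). RNF5, a ubiquitin ligase that acts on SLC1A5 and SLC38A2, rose in each knockdown, by 0.75 ± 0.08 (SE), 0.74 ± 0.07 (SE) and 0.71 ± 0.08 (SE). Of the ubiquitin ligases NEDD4 and NEDD4L, the first fell after siNAE1 (-0.73 ± 0.11, SE) and siURM1 (-0.43 ± 0.12, SE), with -0.08 after siUBE2M (edgeR adjusted p = 0.54). NEDD4L rose after siNAE1 (0.30 ± 0.10, SE), with 0.19 and 0.10 after siUBE2M and siURM1 (edgeR adjusted p = 0.13 and 0.49). OTUB1, a deubiquitinase that stabilizes SLC7A11 protein, rose after siNAE1 (0.20 ± 0.07, SE) and siURM1 (0.26 ± 0.08, SE), with -0.14 after siUBE2M (edgeR adjusted p = 0.12).

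Last, the genes whose pattern over the 11 libraries was most like that of each transporter gene were looked up among the 10467 genes that averaged 10 CPM or more. Likeness was the root mean square difference of log2 CPM after each gene's own mean was subtracted, so that 0 is an identical pattern. For SLC7A11 the nearest 5 were RBM26-AS1 (0.115), LINC00174 (0.228), SEPSECS (0.241), GTF2IP13 (0.244) and CYP4V2 (0.248). The log2 fold changes of RBM26-AS1 were -2.17, -1.20 and -1.77 after siNAE1, siUBE2M and siURM1. SEPSECS, an enzyme of selenocysteine synthesis, had -1.94, -1.27 and -1.27. The nearest gene was GGNBP2 for SLC3A2 (0.0591), DUSP16 for SLC7A1 (0.0401), PKP4 for SLC7A5 (0.0514), ZNF839 for SLC1A4 (0.133), WDR45 for SLC1A5 (0.0740), NFU1 for SLC6A9 (0.115), RBPJ for SLC38A1 (0.0474), KDELC2 for SLC38A2 (0.0474) and GTF2IP13 for SLC7A3 (0.246). None of these was itself one of the 10 transporter genes. GTF2IP13 was near both SLC7A11 and SLC7A3. These likenesses are descriptions over libraries that share their groups, and they have no test.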

How the data were processed

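Per the paper's methods and the submitters' processing notes, fastp was used for trimming, HISAT2 2.0.5 for alignment to GRCh38 and featureCounts 1.5.0-p3 for counting fragments per gene. The authors deposited raw counts, with totals of 11733163 to 16321391 per library, and FPKM values that they derived from these counts and a listed gene length. Neither the annotation version nor whether strand was used in counting is given in the sources used here. Libraries were polyadenylated RNA, made strand-specific.

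Libraries were grouped by their labels, which call them biological replicates. The counts of 58735 genes went into edgeR 4.0.16 (R 4.3.3), where filterByExpr kept 18368 for testing, TMM set the scale and all 4 groups shared 1 quasi-likelihood fit. P-values were adjusted by Benjamini-Hochberg over all of these. Log2 CPM for likeness used a prior count of 2, and ratios were tested by exact permutation (SciPy 1.17.1). The fit was tested on simulated data.

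The 10 genes and the lists (41 other carriers, 14 carriers of mitochondria and lysosomes, and 11 regulators) were chosen with earlier results of these data known. Named from the first and second lists were DEGs of any knockdown against control that averaged 1 CPM or more, from the third all, and by likeness 5 genes for SLC7A11 and 1 for each other gene. SLC38A5 and SLC43A3 were named after their values were seen. SLC66A1 was matched by gene ID. Another regulator and the overlaps of SLC1A5 with other genes are not reported here.

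Alternatives were RLE scaling, DESeq2 1.42.0, no filter, a minimum of 10 counts in each library, 2 groups per fit, a replicate block, glmTreat, limma 3.58.1 on log2(FPKM + 1) and log2(FPKM + 0.1), all light chains in the ratio, and leaving out each library. Plots were made with matplotlib 3.10.9. The siRNA sequences were not used here.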

Additional observations from a re-analysis of the deposited data

How the results depend on the processing

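Under 19 other settings, all 570 log2 fold changes of the 10 genes against control stayed below 0, and 11 no longer passed, all in siURM1 cells and for SLC38A1, SLC7A5 or SLC38A2. When glmTreat tested against a log2 fold change of 1, lower DEGs numbered 3 after siNAE1, 0 after siUBE2M and 2 after siURM1 (4, 1 and 2 at an unadjusted p under 0.05), beside 2.73%, 0.583% and 0.642% of all genes tested, since that test asks more of each gene. Leaving out 1 library gave 4 to 6 lower DEGs after siNAE1, 1 to 2 after siUBE2M and 2 to 4 after siURM1, and 0 to 1 genes that passed lower in siUBE2M than in siURM1 cells. The light chain ratio differed from control by -0.112 after siNAE1 with all 6 light chains, and by 0.144 to 0.342 after siURM1 when either of its libraries was left out. Between siNAE1 and siURM1, SLC7A1 was at -0.00134 with RLE scaling, -0.00720 with 2 groups per fit, -0.00252 with DESeq2 and -0.103 to 0.119 with 1 library left out. Between siUBE2M and siURM1, SLC7A5 ranged from -0.138 to 0.0181 and SLC38A2 from -0.0536 to 0.0317 with 1 library left out. None of these 3 differences passed under any setting, and the cause of their change of sign was not tested.

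Samples with the same replicate number did not deviate together (correlations of -0.0657 to 0.0787 in 15 pairs). With so few libraries per group, this cannot exclude that same-numbered libraries were handled together. With the replicate number as a block, 10, 10 and 10 of the genes passed lower after siNAE1, siUBE2M and siURM1, and 5, 1 and 4 were lower DEGs, as without the block. The small number of siURM1 libraries (n = 2) limits the precision of its values, and p-values measure the spread between these libraries of 1 cell line.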

Other observations

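Carriers of the inner mitochondrial membrane and of lysosomes, which move amino acids within the cell, were looked at in a list of 14 genes, of which 13 were tested. After siNAE1 3 passed lower and 7 higher in edgeR, after siUBE2M 4 and 4, and after siURM1 0 and 3 (0 and 5 at an unadjusted p under 0.05, other tools not run for this list). Of all genes tested, 27.1% passed lower and 27.6% higher after siNAE1, 22.6% and 22.7% after siUBE2M, and 20.8% in each direction after siURM1. The carriers' median log2 fold changes were 0.33, -0.0080 and 0.11, beside -0.00210, 0.00747 and -0.0209 for all genes tested. SFXN3, a mitochondrial serine carrier, rose from 11.1 ± 0.301 CPM in control (mean ± SD, n = 3) to 29.9 ± 4.17 after siNAE1, 17.3 ± 1.68 after siUBE2M and 16.8 ± 1.32 after siURM1 (n = 2). Its log2 fold changes were 1.42 ± 0.12 (SE, edgeR adjusted p = 4.9e-12), 0.63 ± 0.12 (SE, edgeR adjusted p = 5.6e-05) and 0.59 ± 0.13 (SE, edgeR adjusted p = 4.6e-04). SLC25A18, a mitochondrial glutamate carrier, was low, at 0.904 ± 0.389 CPM in control, 2.33 ± 0.801 after siNAE1, 2.45 ± 0.332 after siUBE2M and 1.76 ± 0.548 after siURM1. It rose after siNAE1 (1.34 ± 0.37, SE, edgeR adjusted p = 0.0027) and siUBE2M (1.43 ± 0.36, SE, edgeR adjusted p = 0.0015), and its value after siURM1 was 0.95 ± 0.41 (SE, edgeR adjusted p = 0.064).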
